A study of Rattus norvegicus with 2 samples.

Results

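The 10 genes described here cover glucocorticoid activation and response in fetal rat skin. They are the receptor Nr3c1, the steroid-converting enzymes Hsd11b1 and Hsd11b2, and 7 genes known as targets of the receptor, namely Tsc22d3, Fkbp5, Sgk, Per1, Mt1a, Cebpd and Tat. They were found by the gene name printed on the array, after removal of an ending that marks predicted or mapped genes, and 10 of 10 were present, with 16 of the 41012 probes on the array. In all, 18346 genes could be named. Sgk is now named Sgk1, and Mt1a is now named Mt1.

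The skin came from Sprague Dawley fetuses at embryonic day 16.5, labelled E16, and day 18.5, labelled E19. RNA from 4 E16 samples was pooled, RNA from 3 E19 samples was pooled, and both pools were hybridised together to 2 arrays with the dyes exchanged. On the first array the E19 pool carried Cy5, and on the second it carried Cy3. The labels give neither the sex of the fetuses nor whether the pooled samples came from different litters. Because both arrays hold the same RNA, each stage is 1 sample, no difference between stages has a replicate check, and the SD over the arrays given below is technical spread.

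Glucocorticoids are adrenal steroids that cross the cell membrane and bind the receptor encoded by Nr3c1, which then moves to the nucleus and acts on target genes. Hsd11b1 regenerates active corticosterone from its inert 11-keto form inside the cell, whereas Hsd11b2 inactivates it, so the pair sets how much hormone reaches the receptor in a tissue. Fetal glucocorticoid rises in late gestation, when it is known for maturing the lung, liver and epidermal barrier. The comparison asks whether the targets are higher together at the later stage.

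Of these genes, Hsd11b1 was higher in E19 skin, by 3.03-fold, while Nr3c1 and Hsd11b2 differed little between the pools. In these pools the detected targets were not all higher in E19. Cebpd read slightly lower in E19 on both arrays, and no direction is given for Tsc22d3 or Fkbp5. By the brightest probe of each gene, Sgk, Per1 and Mt1a were between 1.59-fold and 1.66-fold higher in E19. Fkbp5, Tsc22d3 and Cebpd lay between 0.896-fold and 1.15-fold by theirs, with the dimmer Fkbp5 probes at 1.25-fold and 1.23-fold. Tat was not well above background in either pool.

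Genes are called higher in E19 or in E16 below if each of the arrays put them 2-fold or more towards that stage. This rule was met by 613 of 14790 detected genes (4.14%) towards E19 and by 554 (3.75%) towards E16, or 7.89% in all. With the ratios centred on the spike-in control RNAs of the arrays the counts were 389 and 809. Without that, 3 genes (0.0203%) favoured 1 dye by as much on each array. Of the 10 members, 9 were detected, 1 passed the rule towards E19 and 0 passed it towards E16. At least 1.5-fold on both arrays, 4 of the 9 were higher in E19 and 0 in E16, beside 9.55% and 7.69% of all detected genes. Of the 4, Sgk (0.51), Per1 (0.45) and Mt1a (0.46) were below 1.5-fold with spike-in centring, and Hsd11b1 was above it. Each of the 9 was well above background in both pools on both arrays, so none was detected only through the stage in which it was higher. Over all detected genes the log2 ratio of E19 over E16 had a median of 0.02, and its 5 and 95 percentiles were -0.93 and 1.0. The SD of the arrays had a median of 0.11 and a 95 percentile of 0.38, and the ratios of the arrays correlated over genes, which are not replicates, with r = 0.90. Well above background in both pools were 14 of 14 keratinocyte and 11 of 11 fibroblast markers, but also 9 of 9 muscle markers, whose summed intensities were 413623 and 406414 in E16 and 340095 and 258414 in E19. Neuron and cartilage markers were higher in E16 in 10 of 12 each, with sums of 73360 and 73015 in E16 and 13102 and 12872 in E19 for neuron and of 60296 and 59179 in E16 and 15770 and 14074 in E19 for cartilage. Of the cartilage markers called higher in E16, Matn3 was well above background for E19 on 0 arrays and Hapln1 on 1. The arrays also carry 10 spike-in RNAs, whose mean log2 ratio was 0.22. Centring on them lowers each log2 ratio by that amount, so ratios printed below between 0 and 0.22 turn negative with it.

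**Figure D1:**
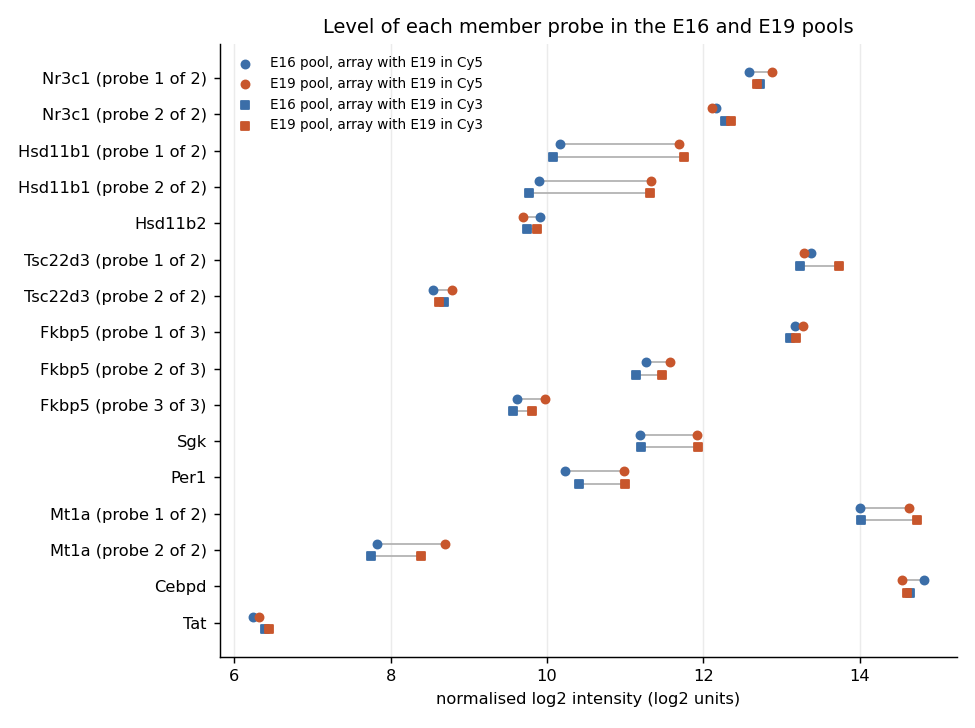
Normalised log2 intensity of each member probe in the E16 pool (blue) and the E19 pool (orange), with circles for the array with E19 in Cy5 and squares for the array with E19 in Cy3; probes of a gene are numbered from the brightest. The widest gaps between the pools are those of both Hsd11b1 probes, and the Tat probe, at 6.24 to 6.45, was not well above background.

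Levels below are log2 intensities after normalisation of both channels, and they compare the pools for 1 probe, not 1 gene with another. The receptor gene Nr3c1 was measured by 2 probes. In the E16 pool its brighter probe read 12.58 on the first array and 12.72 on the second, and in the E19 pool 12.88 and 12.69. The pools overlapped. The log2 ratio was 0.29 on the first array and -0.03 on the second, with a mean of 0.13 ± 0.23 (SD of the 2 arrays). The other probe is printed as 10 spots, so its own measuring error can be seen. Its ratios ran from -0.13 to 0.00 over the 9 usable spots of the first array and from 0.05 to 0.13 over the 10 spots of the second, with SDs of 0.04 and 0.02 over spots. The arrays gave -0.05 and 0.08, which differ by more than the SD over spots, and the mean of this probe was 0.02 ± 0.09.

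Hsd11b1, which regenerates active hormone, separated the pools. Its brighter probe read 10.17 and 10.07 in E16 on the first and second array, and 11.69 and 11.75 in E19. Both E19 values lay above both E16 values. The log2 ratio was 1.52 on the first array and 1.68 on the second, with a mean of 1.60 ± 0.12. The other probe gave 1.43 and 1.54, with a mean of 1.49 ± 0.08, which is 2.80-fold. Both probes thus passed the rule on both arrays. In rank order of the ratio, Hsd11b1 was 226 of 14790 from the top, so that 1.53% of detected genes had a ratio as high or higher.

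Hsd11b2, which inactivates the hormone, had 1 probe. It read 9.91 and 9.74 in E16 and 9.69 and 9.87 in E19, and the pools overlapped. Its log2 ratios of -0.22 and 0.13 had opposite signs on the arrays, with a mean of -0.04 ± 0.25. The ratio of Hsd11b1 exceeded that of Hsd11b2 by 1.73 on the first array and by 1.55 on the second, a mean of 1.64 ± 0.13 or 3.12-fold. A shift of the centre by the same amount for all genes, as with spike-in centring, leaves this difference between ratios unchanged. With median centring in place of loess, Hsd11b1 was at 1.55 and Hsd11b2 at -0.06. H6pd supplies the cofactor that lets Hsd11b1 work as a reductase and was chosen for that role outside the naming rule. It was at 0.01 ± 0.01, and between -0.21 and 0.21 across the other ways of processing. Its probe was dim, at 7.44 and 6.93 in E16 and 7.46 and 6.93 in E19. The lowest levels well above background were 6.55 and 5.92 in E16 and 6.33 and 6.31 in E19, so its ratio is limited by signal over background.

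Fat cell markers moved in the same direction as Hsd11b1. Fat cells, liver cells and fibroblasts are among the cells known to express this enzyme. Of 14 detected fat cell markers, 12 were higher in E19 and 0 in E16, with a median log2 ratio of 2.14, and only Lep of the list was not well above background. Their summed normalised intensity was 24168 and 27687 in E16 and 158551 and 161363 in E19. Of 14 liver markers, 11 were higher in E19 and 1 in E16 (median 1.92). Their sums were 9263 and 8822 in E16 and 31871 and 37196 in E19. Of these 14, 13 were well above background in both pools, and Gc, counted among the 11, was so in E19 alone. Of 11 fibroblast markers, 2 were higher in E19 (0 to 5 across the other ways of processing, median 0.68), with sums of 405846 and 588042 in E16 and 824211 and 722929 in E19. Keratinocyte markers were also higher in E19, in 10 of 14 (2 with median centring in place of loess, median 1.64). Macrophage and mast cell markers were so in 5 of 10 (3 with that centring, median 1.01). In both of these lists 0 were higher in E16. The part of any of these cell types in the Hsd11b1 ratio was not tested. In pooled tissue, more cells of a type and more RNA per cell cannot be told apart.

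**Figure D2:**
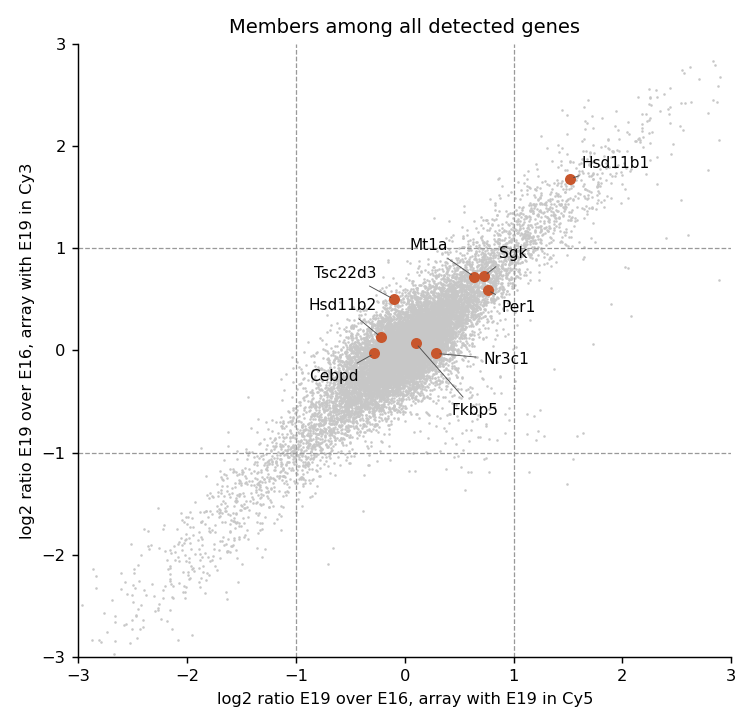
Log2 ratio of E19 over E16 on the array with E19 in Cy5 (horizontal) against the array with E19 in Cy3 (vertical), with each detected gene in grey, the detected members in orange and dashed lines at 2-fold; 59 genes beyond 3 on either axis are not drawn. Hsd11b1 lies past both lines, Sgk, Per1 and Mt1a lie together between 0.59 and 0.76 on both axes, and the other members lie closer to 0.

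Among the targets, Sgk encodes a kinase that keeps sodium channels and transporters at the membrane. It read 11.19 and 11.20 in E16 and 11.92 and 11.93 in E19, so the E19 values lay above the E16 values on both arrays. The log2 ratio was 0.73 on each array, or 1.66-fold. The clock gene Per1, which has a known receptor binding site, read 10.23 and 10.41 in E16 and 10.99 and 11.00 in E19. The E16 and E19 values did not overlap, and the log2 ratio was 0.67 ± 0.12, or 1.59-fold.

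Mt1a encodes metallothionein, a small protein that binds zinc and copper. Its brighter probe read 14.00 and 14.01 in E16 and 14.63 and 14.73 in E19, with a log2 ratio of 0.68 ± 0.06 (1.60-fold). Its other probe, which matches an expressed sequence tag, read 7.83 and 7.75 in E16 and 8.70 and 8.39 in E19, with a log2 ratio of 0.75 ± 0.17 (1.68-fold). The pools were separated by both probes. Metallothionein genes lie in a cluster of close relatives, so either probe may also bind RNA of another member of the family. Of all detected genes, 8.41% had a ratio as high as that of Sgk, 9.43% as high as Mt1a and 9.59% as high as Per1.

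The other targets showed less. Fkbp5 encodes an immunophilin that lowers the hormone affinity of the receptor and is induced by it, closing a feedback loop. Its brightest probe read 13.17 and 13.11 in E16 and 13.27 and 13.18 in E19, a log2 ratio of 0.09 ± 0.02. The dimmer probes gave 0.32 ± 0.02 and 0.30 ± 0.08, which is 1.25-fold and 1.23-fold. All 3 probes were above 0 on both arrays, but they disagreed in size, and averaged over the probes Fkbp5 was at 0.24. When the added spike-in RNAs set the centre, the brightest probe was at -0.13, so its direction depends on the centring.

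Tsc22d3 encodes GILZ, a mediator of the anti-inflammatory action of the hormone. Its brighter probe read 13.38 and 13.23 in E16 and 13.29 and 13.74 in E19, and its log2 ratios of -0.10 and 0.50 had opposite signs, with a mean of 0.20 ± 0.43. The dimmer probe also changed sign between the arrays, at 0.25 and -0.07. No direction could be given for this gene. Cebpd, a transcription factor of early fat cell differentiation, read 14.82 and 14.64 in E16 and 14.54 and 14.60 in E19. Its log2 ratio was below 0 on both arrays, at -0.28 and -0.03, with a mean of -0.16 ± 0.18.

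Tat encodes tyrosine aminotransferase, a liver enzyme that was among the first genes shown to respond to the hormone. It read 6.24 and 6.39 in E16 and 6.31 and 6.45 in E19, and was well above background on 0 of 2 arrays in either pool, so no fold is given. Over the 6 detected targets the median log2 ratio was 0.44, with 4 above 0 and 1 below 0 on both arrays, beside 42.0% and 36.6% of all detected genes. With the value of Tat counted the median over the 7 was 0.20. In the authors' deposited table, which combines the same arrays, the ratio of Hsd11b1 was 3.07-fold, of Sgk 1.67-fold, of Per1 1.63-fold and of Mt1a 1.59-fold. The expressed sequence tag of Mt1a was at 2.12-fold in the authors' deposited table.

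Promoter sequences from RefSeq (build GRCr8, 250 bases before to 50 after a gene start) were matched for 7 members, with 12 promoters in all. Hsd11b1, Hsd11b2 and Cebpd had no entry. The glucocorticoid response element searched was AGAACA and TGTTCT with any 3 bases between them, which reads the same on both strands, and TGTTCT was also searched alone on both strands. The element, the element with 1 mismatch and TGTTCT were each in 0 of the 12 promoters, beside 0.0149%, 0.215% and 20.7% of 33469 promoters of this length. For the metal response element only the spelling TGCGCNC was searched, on both strands, and it was in 14.1% of promoters. It was found in the promoter of Mt1a and in 1 of those of Nr3c1. The Mt1a promoter is shown because it held 3 matches and both of the gene's probes had ratios above 1.5-fold on both arrays, short of the 2-fold rule. It lies at chr19:10832926-10833225 on the minus strand and is written in the direction of transcription, with the matches to TGCGCNC in capitals.

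Mt1a: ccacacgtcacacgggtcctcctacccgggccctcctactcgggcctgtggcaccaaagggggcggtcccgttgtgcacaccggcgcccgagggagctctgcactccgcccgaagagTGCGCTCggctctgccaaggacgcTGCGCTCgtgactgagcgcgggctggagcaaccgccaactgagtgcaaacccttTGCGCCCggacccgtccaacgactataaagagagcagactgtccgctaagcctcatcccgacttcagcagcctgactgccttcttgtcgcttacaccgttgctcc

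The 3 matches begin 133, 109 and 55 bases before the gene start. These are letter matches, not measured binding, and other spellings of the element were neither searched nor marked. Receptor sites of these genes are known to lie outside such short windows too, so nothing follows for the receptor.

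Metallothionein also responds to zinc, and other metal response genes were measured beside it. Of 18 detected, 2 were higher in E19, the quinone reductase Nqo1 (1.35 ± 0.03) and transferrin, listed as Trf (1.20 ± 0.20), and 1 was higher in E16, the brain-type metallothionein Mt3 (-1.88 ± 0.03). The zinc exporter Slc30a1, which is induced through the same element and was chosen after its value was seen, was at 0.66 ± 0.04. The median of the list was 0.22, and 0.00 with spike-in centring. Trf did not pass the rule with the scanner software's own processed signals, with median centring in place of loess or with spike-in centring.

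Per1 was also set beside the other clock genes, since time of day moves them. Of 15 detected, 1 was higher in E19, the nuclear receptor gene Rora (1.43 ± 0.03), and 0 were higher in E16, with a median of 0.14 that became -0.08 with spike-in centring. The largest other ratios were of Bhlhe41 (-0.48 ± 0.42), Bmal1 (0.48 ± 0.06) and Nfil3 (0.47 ± 0.22). Dbp, a gene with strong daily rhythm chosen after its value was seen, was at -0.02 ± 0.15. The labels give no hour of collection.

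Sgk, Per1 and Cebpd are also immediate early genes, which handling of tissue can induce. Of 31 detected immediate early and stress genes, those 3 included, 2 were higher in E19, the heat shock gene Hspa1a (1.47 ± 0.23) and the epidermal barrier factor Klf4 (1.46 ± 0.11), and 0 were higher in E16. The median was 0.07, and -0.15 with spike-in centring. Junb (1.14 ± 0.28), Hspb1 (0.81 ± 0.31) and Btg2 (0.69 ± 0.30) had ratios in the range of Sgk and Per1 or above and did not pass the rule. Btg2 was chosen after its value was seen. At least 1.5-fold on both arrays, 6 of the 31 were higher in E19, Sgk and Per1 among them, and 0 in E16. The shares of all detected genes were 9.55% and 7.69%. Fos was at -0.05 ± 0.21 and Egr1 at -0.16 ± 0.13, both chosen after their values were seen. The part of handling in the ratios of Sgk and Per1 was not tested. Hspa1a and Klf4 did not pass the rule with median centring.

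Cebpd was at -0.28 and -0.03 on the arrays, the second smaller in size than the median SD over all genes (0.11). Of 6 relatives on the C/EBP list, 4 were above 0 on both arrays and 0 below. Cebpa, the factor of mature fat cells, was higher in E19 (1.47 ± 0.26) and 0 were higher in E16, with a median of 0.68. Cebpb was at 0.94 and 1.05 on the arrays, Cebpe at 0.82 ± 0.05 and Cebpg at 0.54 ± 0.23, and none of these passed the rule in the setting used here. The count was 3 in the authors' deposited table and 2 with the scanner software's processed signals, where Cebpe also passed. Tat was set beside other enzymes of amino acid and glucose metabolism known from liver. Of 17 detected, 4 were higher in E19 and 0 in E16 (median 0.60): Pck1 of glucose and glycerol synthesis (3.26 ± 0.15), Gnmt (1.80 ± 0.31), the tyrosine pathway enzyme Hpd (1.58 ± 0.08) and Arg1 (1.42 ± 0.24). There were 7 higher in E19 with the processed signals and 8 in the authors' deposited table, each with a median of 0.94. Liver markers were higher in E19 in 11 of 14 in the same pools, counting Gc, which was detected through E19 alone. The part of liver cells in these ratios was not tested. The processed signals of the scanner software, Feature Extraction, put Pck1 at 4.24 and Gnmt at 2.50, and an average over its probes put Pck1 at 2.46.

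**Figure D3:**
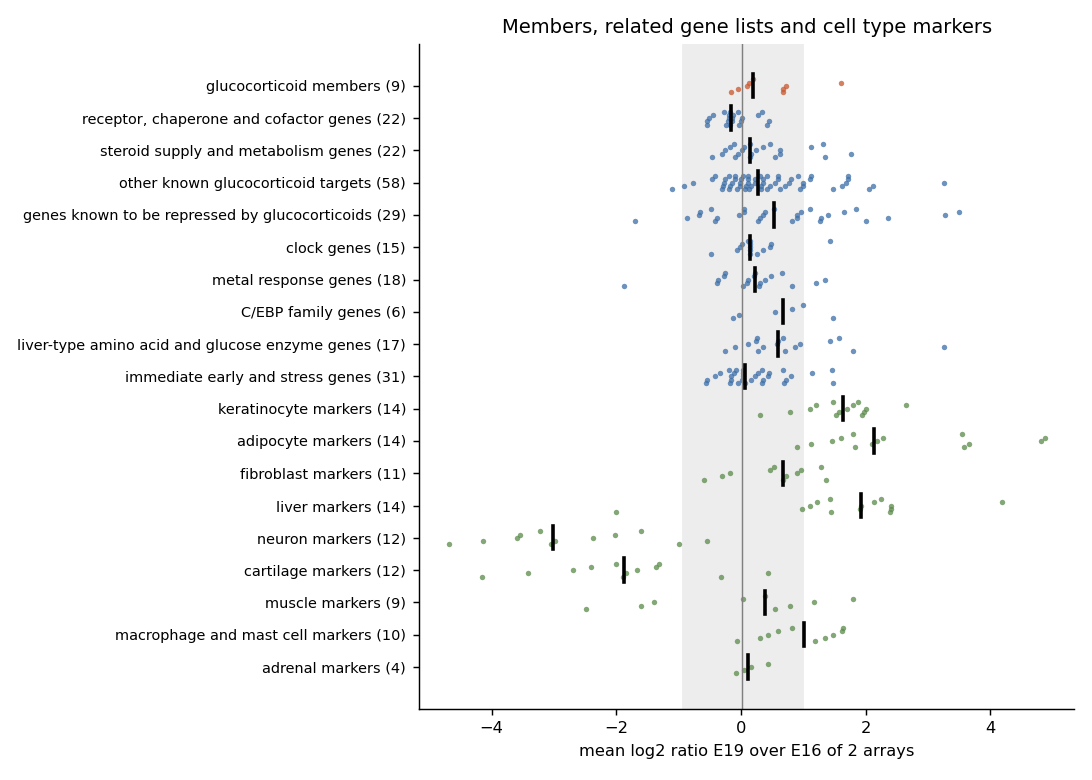
Mean log2 ratio of E19 over E16 of each detected gene (points) in the members (orange), related gene lists (blue) and cell type marker lists (green), with the number of detected genes in parentheses, the list median as a black bar, the median of all detected genes as a grey line and their 5 to 95 percentiles as a grey band. The members and the related lists have medians within the band, and the medians of fat cell, liver, keratinocyte, neuron, cartilage and leukocyte markers lie beyond it. The band is the spread of single genes, not of list medians, and the leukocyte median, at 1.01, lies just past its edge.

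A wider list of known glucocorticoid targets held 58 detected genes. Of these, 10 were higher in E19 and 0 in E16, with a median log2 ratio of 0.27, beside 4.14%, 3.75% and 0.02 for all detected genes. Spike-in centring gave 8 and 2 with a median of 0.05, and the authors' deposited table gave 16 higher in E19. Epithelial sodium channel subunits, which draw sodium out of fluid and are held at the membrane by Sgk, were among them. Scnn1b was at 2.05 ± 0.14 and Scnn1g at 1.71 ± 0.09, while Scnn1a, chosen after its value was seen, was at 1.07 and 0.94 on the arrays and missed the rule on the second. Besides Pck1 and Cebpa, the others were the water and glycerol channel Aqp3 (2.11 ± 0.30), the AMP deaminase Ampd3 (1.71 ± 0.42), the interleukin 1 decoy receptor Il1r2 (1.69 ± 0.07), the macrophage scavenger receptor Cd163 (1.62 ± 0.05), the sulfotransferase Sult1a1 (1.13 ± 0.07) and the interleukin 6 receptor Il6r (1.11 ± 0.06). Sult1a1 and Il6r did not pass the rule with spike-in or median centring, nor did Aqp3 with median centring. Cd163 is also a macrophage marker and was at 2.51 in the processed signals.

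Of the 10, 1 (Cd163) is on a marker list used here. Markers of several cell types were higher in E19 in the same pools. Keratinocyte markers were higher in E19 in 10 of 14 (2 with median centring in place of loess, median 1.64), with summed intensities of 360222 and 847510 in E16 and 1531862 and 1674348 in E19. Probes of Krt14 and Krt10 had saturated spots, and the keratinocyte sums of the same E16 RNA differed between the arrays. Macrophage and mast cell markers were higher in 5 of 10 (3 with median centring, median 1.01). Their sums were 39680 and 41452 in E16 and 88392 and 93851 in E19. The part of these cells in the target ratios was not tested. Other targets on the list are given here for their known roles, picked with their values in view. The phosphatase gene Dusp1 was at 0.35 ± 0.13, the NF-kappaB inhibitor Nfkbia at 0.31 ± 0.04, Klf15 at 0.12 ± 0.01 (-0.09 with spike-in centring), the mTOR inhibitor Ddit4 at 0.07 ± 0.20 (-0.15 with spike-in centring) and Klf9 at 0.80 ± 0.03. Zbtb16 and Pdk4 were not well above background. The largest ratio towards E16 was that of the iron-binding lipocalin Lcn2 (-1.11 ± 0.27), which did not pass the rule on both arrays.

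Genes known to be repressed by glucocorticoids were measured as well. Of 29 detected, 9 were higher in E19 and 1 in E16, with a median of 0.53, beside 4.14%, 3.75% and 0.02 for all detected genes. The collagenase Mmp13 (3.50 ± 0.10) and the stromelysin Mmp3 (3.27 ± 0.11) had the largest ratios. The others past the rule were the chemokines Ccl5 (2.35 ± 0.28) and Cxcl10 (1.84 ± 0.06), the keratin Krt17 (1.65 ± 0.30), the cytokines Il1a (1.40 ± 0.10) and Il1b (1.29 ± 0.15), the plasminogen activator Plau (1.27 ± 0.08) and Krt5 (1.11 ± 0.02). Krt14, at 3.27 on the first array and 0.74 on the second, did not pass it in the setting used here. Its probe had saturated spots. It passed with saturated spots left out, with the processed signals and in the authors' deposited table. The adhesion molecule gene Vcam1 was higher in E16 (-1.70 ± 0.31). Il1b, Plau and Krt5 did not pass the rule with spike-in or median centring, which left 6 higher in E19. Both the induced and the repressed list therefore held more genes called higher in E19 than in E16. Of the repressed list, 4 genes are also on marker lists used here, with Krt5 among the 9 higher in E19. The part of keratinocytes in these ratios was not tested.

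Receptor chaperones and cofactors had small ratios. Of 22 detected, 0 passed the rule in either direction, 11 were below 0 and 4 above 0 on both arrays, and the median was -0.16. The largest ratios were of the immunophilin Ppid (-0.55 ± 0.23), the mineralocorticoid receptor Nr3c2, which binds the same hormone (-0.54 ± 0.05), the chaperone Hsp90aa1, which holds the receptor ready for hormone (-0.52 ± 0.06), and the co-chaperone Dnajb1 (0.45 ± 0.05). Fkbp4, the immunophilin that counteracts Fkbp5 and was chosen after its value was seen, was at -0.21 ± 0.10.

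Of 22 detected genes of steroid supply and metabolism, 4 were higher in E19 and 0 in E16, with a median of 0.15 that became -0.06 with spike-in centring. Sts, which removes sulfate from steroids and cholesterol (1.77 ± 0.14), and Sult2b1, which adds it (1.31 ± 0.28), both act in the epidermis. The others were Cyp3a9 (1.35 ± 0.43), a steroid hydroxylase, and Hsd17b2 (1.12 ± 0.03), which inactivates sex steroids. With spike-in centring 1 of the 4, Sts, passed the rule, and with median centring 2 did, Sts and Cyp3a9. Of the genes that make the hormone, Cyp11a1 and Cyp21a1 were not well above background, and neither were the ACTH receptor Mc2r and the steroid carrier Serpina6. Star at 0.05 ± 0.22 (-0.17 with spike-in centring) and Cyp11b1 at 0.16 ± 0.05 (-0.06 with it), both chosen after their values were seen, were detected. Of 7 adrenal markers on the array, 4 were detected and 0 passed the rule. These 4 were dim, with summed intensities of 767 and 786 in E16 and 903 and 842 in E19. Among them, Dbh was well above background for E19 on 1 array. Their ratios, those of Star and Cyp11b1 included, are limited by signal over background.

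**Figure D4:**
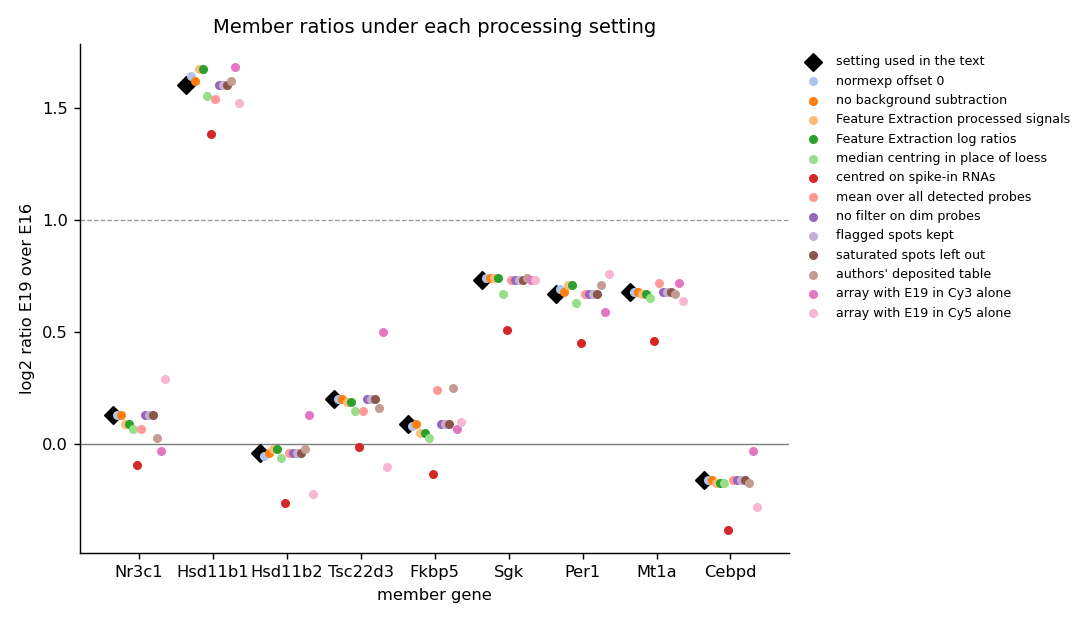
Log2 ratio of E19 over E16 (vertical) of each detected member (horizontal) in the setting used in the text (black diamonds) and in each alternative processing (coloured points), with a dashed line at 2-fold. Hsd11b1 stays between 1.38 and 1.68, Sgk, Per1 and Mt1a stay between 0.45 and 0.76, and Nr3c1, Hsd11b2, Tsc22d3 and Fkbp5 have points on both sides of 0.

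Across the 13 other ways of processing, Hsd11b1 ranged from 1.38 to 1.68, Sgk from 0.51 to 0.74, Per1 from 0.45 to 0.76 and Mt1a from 0.46 to 0.72. Cebpd stayed below 0, from -0.38 to -0.03. Nr3c1 ranged from -0.09 to 0.29, Hsd11b2 from -0.26 to 0.13, Tsc22d3 from -0.10 to 0.50 and Fkbp5 from -0.13 to 0.25. No direction is given for these 4. The -0.13 of Fkbp5 is that of its brightest probe, and its dimmer probes were at 0.32 and 0.30 in the setting used here. The lowest value of each range except that of Tsc22d3 came from spike-in centring. Gapdh, at 0.02 ± 0.57, and Actb, at -0.04 ± 0.92, read higher in Cy5 than in Cy3 on both arrays, so these very bright probes carried a dye difference larger than the ratios of several members.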

How the data were processed

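Per the file headers, the deposited files give mean spot intensity and local median background per channel from Agilent Feature Extraction 9.5.1.1, with its processed signals, flags of 0 or 1 (here called other) and log10 ratios. Per sequence, a table deposited by the authors holds a log10 ratio and a p-value. How the authors combined the arrays is not given in the sources used here. The direction of that ratio was taken from its correlation with each array (r = 0.90). Background was corrected by normexp (offset 50), and loess was run within arrays with control spots at weight 0 (limma 3.58.1, R 4.3.3). Flagged outlier spots were left out. Levels also had Aquantile normalisation between arrays. A probe was detected when well above background for 1 pool on both arrays, and the brightest detected probe stood for a gene. Names were updated through a RefSeq table of the GRCr8 assembly: of 41012 probes, 17606 had no gene name. Later steps used Python 3.11.15, numpy 2.4.6 and pandas 2.3.3. Members and lists were chosen with earlier results of these data known. Named genes are all members, list genes past the 2-fold rule or up to 4 largest ratios per list, and Gapdh and Actb. Not every gene so selected is printed. Genes outside this rule are marked as such where they appear, except those named only for detection or saturation. The normalisation and the 2-fold rule were tested on simulated data. No test between stages was possible with 1 pool each, and the number of arrays limits the precision.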

Additional observations from a re-analysis of the deposited data

How the results depend on the processing

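No paired analysis was possible because both arrays hold the same 2 pools. The count of members higher in E19 was 1 in each alternative except the fold limits, where it was 4 at 1.5-fold and 0 at 3-fold. Hsd11b1 was at 1.38 with spike-in centring. The median of the detected members was -0.01 and that of the targets 0.22 with spike-in centring, and the target median was 0.20 with no filter on dim probes, which adds Tat. With 1 array left out the member median was 0.29 or 0.50. Over all genes, the scanner software's processed signals, and likewise its log ratios, gave 1014 higher in E19 and 889 in E16. The authors' deposited table gave 1198 and 999. A limit of 1.5-fold gave 1413 and 1138, and one of 3-fold 178 and 230. Median centring gave 367 higher in E19 and 439 in E16, and spike-in centring 389 and 809. The fold limits act by construction, and the cause of the other moves was not tested. Of 104 values of the other members, 88 moved by no more than the SD of the arrays. That count is partly fixed in advance, because leaving out 1 array cannot move a mean by more than this SD. Keeping flagged spots, leaving out saturated spots or lifting the filter on dim probes changed none of these values. The wider targets higher in E19 numbered 7 to 16, against 10. Dim genes such as Tat are limited by signal over background.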
